A study of Mus musculus with 4 samples.

Results

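The S100 genes encode small calcium-binding proteins, and 10 of them, S100a1, S100a3, S100a4, S100a6, S100a8, S100a9, S100a10, S100a11, S100a13 and S100a16, were followed across the 4 libraries of the study. They were taken by symbol from a table of 50600 genes, and all 10 symbols were found. The libraries came from Py8119, a mammary gland tumour cell line of the C57BL/6 mouse strain that the labels call mesenchymal-like, grown in IMDM with fetal bovine serum and given no treatment. One group is a control population (titled hygro, genotype control) and the other overexpresses Mtss1, with 2 libraries each, numbered 1 and 2. Mtss1 encodes a membrane- and actin-binding scaffold protein. The vector, its promoter, the selection and whether each population was a clone or a pool are not given in the sources used here. Whether replicates are separate cultures is not stated. A p-value here sets the difference of the groups against the scatter between libraries of a group, which may be technical. The test takes most of that scatter from all tested genes, not from the gene's own libraries.

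S100 proteins work mostly as dimers. Each subunit carries a pair of EF-hands, helix-loop-helix motifs that bind calcium, and binding opens a surface that grips target proteins such as annexins, myosin and p53. Some members also leave the cell and act on receptors as alarm signals. In mammary tumours the family is best known for S100a4, or metastasin, which promotes cell motility and metastasis.

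S100a4 was the member that changed most, falling 2.85-fold with Mtss1 overexpression. Its direct neighbour S100a3 fell as well, while S100a6, S100a10, S100a1, S100a13 and S100a16 rose. S100a11 did not pass the test, S100a8 was close to the detection limit and S100a9 had no read. The plot of levels by library shows the values in CPM, a gene's reads scaled to a common library size.

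**Figure D1:**
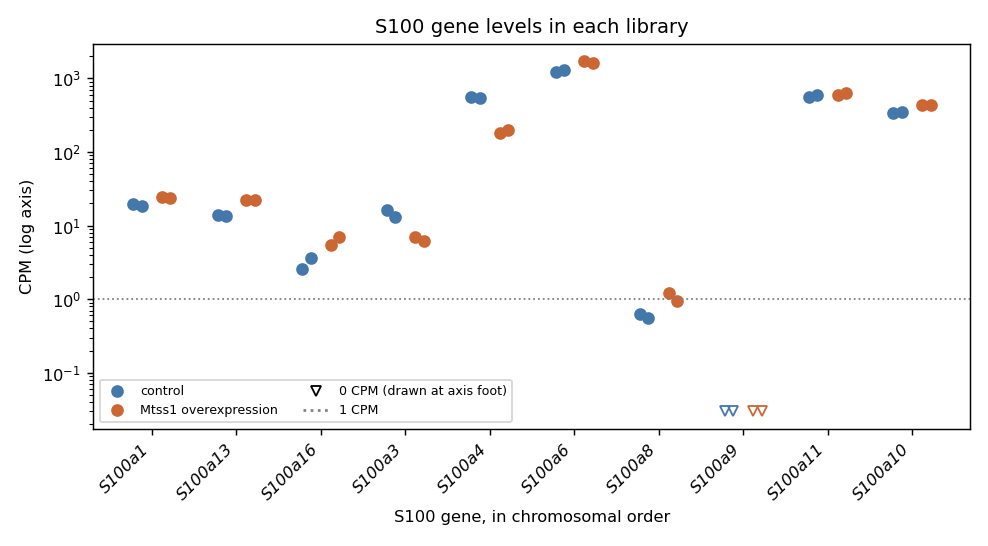
CPM of the 10 S100 genes in each library, on a log axis, in the order of the genes along the chromosome (blue, control 1 and 2; orange, Mtss1 overexpression 1 and 2; open triangles, 0 CPM; dotted line, 1 CPM). S100a4 lies at 551 and 543 CPM in the control and at 183 and 201 CPM with overexpression, while S100a6 lies higher with overexpression than in the control.

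All 10 genes lie on mouse chromosome 3 (mm10) and are annotated as protein-coding. In the first cluster S100a1 (90511034 to 90514392, minus strand) is followed by S100a13 (90514435 to 90524581), S100a16 (90537254 to 90543151), S100a3 (90560578 to 90602702), S100a4 (90603771 to 90606045), S100a6 (90612882 to 90624181) and S100a8 (90668978 to 90670035) on the plus strand and S100a9 (90692632 to 90695721) on the minus strand. S100a11 (93520488 to 93526287) and S100a10 (93555080 to 93564643) form a separate pair on the plus strand. The values are per gene, so exons, introns and UTRs were not measured apart.

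Upstream sequence is shown for S100a3 and S100a4, the members that fell, and for S100a6, the next member along the chromosome, which rose. The letters come from RefSeq (GRCm38.p6, the build named mm10), run 5′ to 3′ on the plus strand, end just before the annotated start and hold no annotated exon. Capitals mark a TATAAA hexamer or the TEAD site GGAATG, and the S100a3 window, inside the gene in GENCODE, is that of its start nearest to S100a4.
S100a3, chr3:90599964-90600213: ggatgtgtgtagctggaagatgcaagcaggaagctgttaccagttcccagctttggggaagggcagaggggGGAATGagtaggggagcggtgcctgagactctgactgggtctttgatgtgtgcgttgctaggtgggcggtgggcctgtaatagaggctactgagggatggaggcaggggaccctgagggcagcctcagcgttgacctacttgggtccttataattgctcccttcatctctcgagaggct
S100a4, chr3:90603520-90603769: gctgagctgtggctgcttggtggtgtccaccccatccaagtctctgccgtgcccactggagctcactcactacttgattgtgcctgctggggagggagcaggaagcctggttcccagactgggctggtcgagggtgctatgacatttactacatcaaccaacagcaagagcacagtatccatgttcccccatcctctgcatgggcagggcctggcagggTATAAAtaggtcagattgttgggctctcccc
S100a6, chr3:90612644-90612881: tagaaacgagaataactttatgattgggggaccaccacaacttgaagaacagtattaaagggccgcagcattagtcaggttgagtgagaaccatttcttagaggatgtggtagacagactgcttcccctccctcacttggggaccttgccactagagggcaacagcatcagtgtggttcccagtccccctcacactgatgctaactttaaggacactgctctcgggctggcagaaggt
S100a1 and S100a13 point away from each other, and the plus strand between their GENCODE starts is 42 bases long; it is shown because both genes rose.
S100a1 to S100a13, chr3:90514393-90514434: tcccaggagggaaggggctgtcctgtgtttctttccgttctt

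RefSeq promoters were found for 9 of the 10 members, with 13 windows because S100a3 and S100a16 have several starts. The first 250 bases of each window were searched on both strands. TATAAA, the core of a TATA box, was in 3 of the 13 windows, against 12.4% of 32851 mouse promoter windows of that length. These were S100a4, with its first base 31 bases before the start, S100a8, with 30 bases, and another start of S100a3, with 52 bases. The AP-1 site TGANTCA was in 2 of 13 windows (6.75% of all), those of S100a11 and of 1 start of S100a16. GGAATG was in 1 of 13 (12.6% of all), and the E-box CANNTG in 10 of 13 (66.2% of all). The NF-kB consensus, relevant because the series title concerns p65, a subunit of that factor, had no match in 13 windows (7.25% of all), and neither had the CArG box (1.47% of all). The E-box and AP-1 letters read alike on both strands, so a site counts once, and in 1 window of S100a16 an AP-1 site and an E-box share bases. A match describes the letters only, and no match says nothing of the factor.

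As a check of the labels, Mtss1 itself was at 54.5 and 50.5 CPM in the controls, against 118 and 119 CPM where it was overexpressed. The 4 libraries held 15594209 to 22081639 recovered reads, with 12096 to 12288 genes at 1 CPM or more, and the overexpression libraries were the shallower ones. Of the markers fixed for the line, Vim, Fn1, Krt8 and Krt18 were well expressed in all libraries, with Vim at 4010 to 4302 CPM. Krt8, an epithelial keratin, fell from 562 and 608 CPM in the controls to 367 and 368 CPM. Of the other identity markers Krt18 and Fn1 fell (-0.28 and -0.30 on the log2 scale), Twist1 and Zeb1 rose (0.51 and 0.17) and Vim did not pass. The part of these markers in the S100 values was not tested. The epithelial markers Epcam and Krt5 were at 0 in all libraries and Cdh1 and Krt14 at no more than 0.119 CPM, as far as the mesenchymal-like label can be checked. Changes were tested with limma on log2(CPM + 1) for the 12510 genes that reached 1 CPM in 2 or more libraries, and called at an adjusted p under 0.05 (Benjamini-Hochberg over all genes tested). Differences were widespread: 66.1% of the tested genes were called, 31.9% as higher and 34.2% as lower, and the libraries of the 2 groups did not overlap for 81.6%. Scaled by library size instead, 4362 genes were called higher and 3888 lower.

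Of the 10 S100 genes 8 were tested, and each of the 8 had at least 1 CPM in all 4 libraries. With 5 higher, 2 lower and 1 not past the threshold, 7 of 8 were called, to be read against the 66.1% for all genes. The libraries of the groups did not overlap for all 8, against 81.6%. The median log2 fold change of the 8 was 0.33, and that of all tested genes was -0.01. In these bulk samples, fewer cells that carry a transcript and less of it per cell cannot be told apart.

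S100a4 (ENSMUSG00000001020) binds non-muscle myosin IIA and loosens its filaments. In control 1 and 2 it stood at 551 and 543 CPM, against 183 and 201 CPM in overexpression 1 and 2. Both control libraries were far above both overexpression libraries. The mean went from 547 ± 5.28 to 192 ± 12.1 CPM (SD, n = 2), 2.85-fold lower (log2 fold change -1.51 ± 0.04 SE; limma adjusted p = 5.0e-19). This was the 152nd most negative of 12510 fitted changes, and 3.83% of tested genes were called with a change of at least 2-fold downward on the log2(CPM + 1) scale. Over 13 alternative settings its log2 fold change stayed between -1.57 and -1.44.

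S100a3 (ENSMUSG00000001021), a calcium- and zinc-binding protein of the hair cuticle, was expressed at a much lower level. It read 16.5 and 12.9 CPM in the control libraries, against 6.93 and 6.19 CPM with overexpression. The groups did not overlap, and the 2 control libraries differed from each other more than the overexpression libraries did. Its mean fell from 14.7 ± 2.49 to 6.56 ± 0.526 CPM (SD, n = 2). On the log2 scale this was -1.05 ± 0.13 (SE; limma adjusted p = 2.4e-07). The transcript Gm42674 joins exons of both genes and shares 144 exonic bases with S100a3 and 302 with S100a4, so reads of these genes could have been divided among them. Gm42674 itself read at most 0.0715 CPM in any library.

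S100a6 (ENSMUSG00000001025), or calcyclin, is a partner of the ubiquitin-ligase adaptor CacyBP and had the highest CPM of the family. It read 1214 and 1284 CPM in control, against 1700 and 1642 CPM with overexpression, with every overexpression library above every control library. Mean levels were 1249 ± 49.5 and 1671 ± 41.0 CPM (SD, n = 2), a rise of 1.34-fold (log2 fold change 0.42 ± 0.04 SE, limma adjusted p = 5.7e-10). By mean CPM it was the 38th highest of the 12510 genes tested. S100a4 and S100a6 lie side by side, apart from S100a5, and were called in opposite directions.

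S100a10 and S100a11 are the annexin partners of the family. S100a10 (ENSMUSG00000041959), or p11, has lost calcium binding and forms a complex with annexin A2 that recruits plasminogen activator to the cell surface. It read 344 and 352 CPM in control, against 430 and 442 CPM with overexpression. It rose, with means of 348 ± 6.16 and 436 ± 8.29 CPM (SD, n = 2; log2 fold change 0.32 ± 0.03 SE, limma adjusted p = 2.4e-08). S100a11 (ENSMUSG00000027907), a partner of annexin A1, read 568 and 601 CPM in control, against 602 and 636 CPM with overexpression. The groups nearly touched, the higher control library lying just under the lower overexpression library. Its log2 fold change of 0.08 ± 0.04 (SE, 95% interval 0.01 to 0.16) missed the threshold (limma adjusted p = 0.053), and it passed in 7 of 13 alternative settings, with adjusted p from 0.0039 to 0.43. It passed with library-size scaling (limma adjusted p = 0.0048) and with median-of-ratios scaling (0.022). Other settings in which it passed included 1 CPM in all libraries (0.0395) and the fits without control 2 and without overexpression 1.

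S100a13, S100a1 and S100a16 were higher at lower levels. S100a13 (ENSMUSG00000042312) takes part in the release of FGF1 and interleukin 1 alpha, which lack a signal peptide. It read 13.8 and 13.7 CPM in control, against 22.4 and 22.4 CPM with overexpression. The libraries of a group were almost equal, and the log2 fold change was 0.67 ± 0.09 (SE; limma adjusted p = 1.5e-06). S100a1 (ENSMUSG00000044080), a regulator of the calcium pump and the ryanodine receptor in muscle, read 19.3 and 18.5 CPM in control, against 24.6 and 23.4 CPM with overexpression. It rose less than S100a13 in its fitted value, by 0.33 ± 0.09 on the log2 scale (SE; limma adjusted p = 0.0021); the difference between these neighbours was not tested. S100a16 (ENSMUSG00000074457), a widely expressed member, read 2.55 and 3.59 CPM in control, against 5.42 and 7.08 CPM with overexpression. Its replicates varied the most relative to their mean, and the log2 fold change was 0.84 ± 0.17 (SE; limma adjusted p = 1.3e-04), with a range of 0.48 to 1.03 over 13 alternative settings.

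S100a8 and S100a9 form calprotectin, the abundant antimicrobial heterodimer of neutrophils. S100a8 (ENSMUSG00000056054) had 13 and 12 reads in control 1 and 2 and 19 and 16 reads in overexpression 1 and 2, which is 0.637, 0.552, 1.20 and 0.952 CPM. On the CPM scale, overexpression gave 1.81 times the control (exact 95% Poisson interval 1.05 to 3.15, counting error only). It reached 1 CPM in 1 library and was not tested. Without the filter on low values the fitted log2 difference was 0.38 ± 0.13 (SE), not past the threshold (limma adjusted p = 0.077). S100a9 (ENSMUSG00000056071) had 0 reads in all 4 libraries, which allows up to 3 reads, or 0.138 to 0.189 CPM, counting error only. Of 17 neutrophil and myeloid markers, 6 (Itgam, Csf3r, Ly6g, Mpo, Camp and Ngp) were at 0 in all libraries and 13 stayed under the filter. Their summed level was 487 to 538 CPM in control and 609 to 669 CPM with overexpression, nearly all of it Lcn2, a gene that epithelial cells express too. Without Lcn2 the sums were 29.3 to 33.2 CPM and 14.5 to 17.3 CPM, with Itgb2, a leukocyte integrin chain, lower under overexpression (19.4 and 3.52 CPM on average). In the direction of S100a8, the granule gene Ltf read 0.245 and 0.138 CPM in control, against 0.756 and 1.07 CPM, untested, and Lyz2, a lysozyme gene, averaged 2.78 and 3.80 CPM, not past the threshold. The part of these markers in the S100a8 values was not tested.

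The order of levels between genes was read per kilobase of exon, since a longer transcript yields more reads. With the union of annotated exons as the length, the control levels were 1144 ± 45.9 CPM per kilobase for S100a11, 937 ± 9.04 for S100a4, 914 ± 36.2 for S100a6 and 287 ± 5.08 for S100a10 (SD, n = 2). At this length S100a4 and S100a6 did not differ beyond their spread in the control. With overexpression the levels were 1222 ± 30.0 for S100a6, 1211 ± 47.1 for S100a11, 360 ± 6.84 for S100a10 and 329 ± 20.8 for S100a4, and the first 2 of these did not differ beyond their spread. S100a1 and S100a13 followed at 19.2 to 34.6 CPM per kilobase in either group, and the others were under 4. With the longest transcript as the length, S100a6 and S100a4 were well apart in the control, at 1595 ± 63.2 and 1099 ± 10.6 CPM per kilobase (SD, n = 2). S100a6 then had rank 1 in both groups, and S100a4 had rank 3 in control and rank 4 with overexpression.

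The makeup of S100 transcripts shifted accordingly. S100a4 made up 28.8% and 27.5% of the summed S100 level per kilobase in control 1 and 2, and 9.93% and 10.6% in overexpression 1 and 2. The share of S100a6 was 27.1% and 27.7% in control and 39.3% and 37.2% with overexpression. Per kilobase, the ratio of S100a6 to S100a4 was 0.942 and 1.01 in the control libraries and 3.96 and 3.50 in the overexpression libraries. With the longest transcript the ratio was 1.4 and 1.5 in control, against 5.9 and 5.21, and the S100a4 share 25.6% and 24.4%, against 8.33% and 9.02%. The summed level was 3333 ± 77.2 CPM per kilobase in control and 3194 ± 43.8 with overexpression (SD, n = 2), a log2 ratio of -0.06. The sign of that ratio turned with the longest transcript as the length (0.0136), so no direction of the sum is given. With 2 libraries against 2, an exact permutation test of such values cannot give a p below 0.33.

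**Figure D2:**
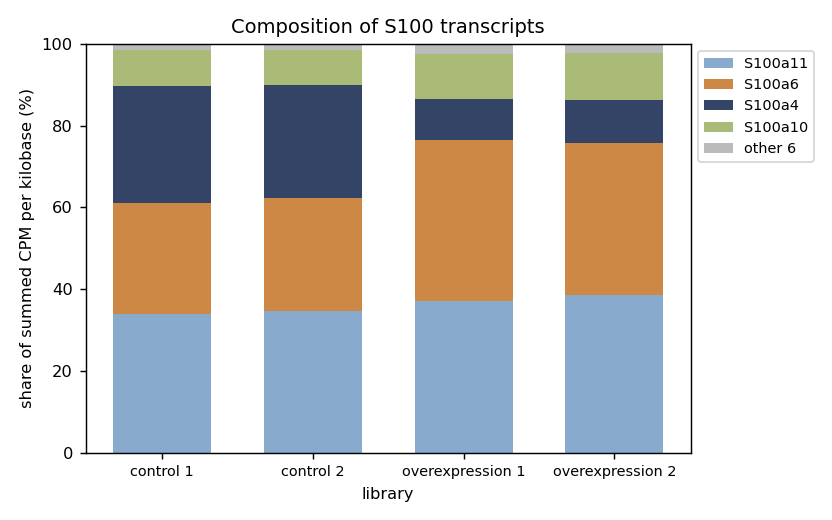
Share of S100a11, S100a6, S100a4, S100a10 and the other 6 members together in the summed CPM per kilobase of exon, in percent, in each of the 4 libraries. The S100a4 segment shrinks from 28.8% and 27.5% in the control libraries to 9.93% and 10.6% with overexpression, while the S100a6 segment grows.

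Of 8 other S100 symbols searched, 7 were in the table. S100g and S100z were at 0 in all libraries, and S100a2, S100a5, S100a14 and S100b stayed at or below 0.504 CPM. S100a7a (ENSMUSG00000063767, chromosome 3, 90654017 to 90658669) was the only one tested and is named here after its values were seen. It lies between S100a6 and S100a8 and read 7.40 and 7.59 CPM in control, against 24.3 and 21.3 CPM with overexpression. The groups were well apart, at 3.04-fold (log2 fold change 1.48 ± 0.11 SE, limma adjusted p = 5.4e-11). S100a5, between S100a4 and S100a6, had 2 and 8 reads in control and 0 in both overexpression libraries, which allows up to 3 reads in each; it was not tested. Keratinocyte and melanocyte markers, which cover tissues where several S100 genes are abundant, summed to 6.67 to 6.76 CPM in control and 5.36 to 6.37 CPM with overexpression. Of these 8 markers, 2 were tested and none was called, against 66.1% called among all genes.

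Genes around the S100 loci were read beside the members. Of 52 table genes other than S100 genes within 250000 bases of a member, 8 were tested, all of them on the S100a1 side of the first cluster. None of the tested ones lay between members or near S100a11 and S100a10, so they cannot show whether changes there were shared along the chromosome. Of the 8, 2 rose, 1 fell and 5 did not pass, that is 3 of 8 against the 66.1% background, and their median log2 fold change was 0.07. Gatad2b, a subunit of a chromatin-remodelling complex, rose by 0.39 ± 0.04 and Crtc2, a CREB coactivator, by 0.26 ± 0.04 on the log2 scale (SE; limma adjusted p = 2.6e-08 and 1.9e-05). Chtop, an mRNA export factor and the neighbour of S100a1, fell by 0.17 ± 0.04 (SE; limma adjusted p = 0.0012). All 3 changes were smaller in size than those of S100a3 and S100a4, while that of Gatad2b exceeded the rises of S100a1 (0.33) and S100a10 (0.32) in fitted size. Without overexpression 2, 5 of the 8 were called, against 60.2% of all genes in that fit.

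**Figure D3:**
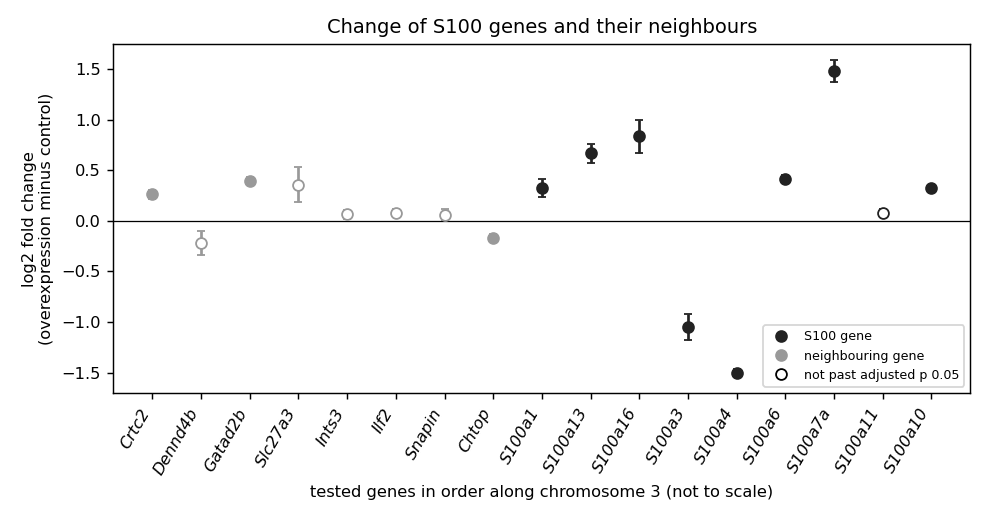
Log2 fold change (overexpression minus control, on log2(CPM + 1); bars, SE) of the tested S100 genes, S100a7a included (black) and neighbouring genes (grey) in their order along chromosome 3, not to scale; open points did not pass an adjusted p of 0.05. S100a3 and S100a4 lie at -1.05 and -1.51, between S100a16 at 0.84 and S100a6 at 0.42.

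Proteins that S100 members bind, regulate or signal through are encoded by a list of 43 genes, of which 36 were tested. Of these 13 rose, 18 fell and 5 did not pass, 31 of 36 against the 66.1% background, with a median log2 fold change of -0.10. Of the 36, 4 (Mcam, Cd36, Syt1 and Fgf1) reached 1 CPM in only some libraries. With 1 CPM required in all libraries, 9 rose and 18 fell of 32, against 66.4% of all genes called in that fit.

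Among annexins and their complex partners, 3 rose, 3 fell and 1 did not pass, against 66.1% called among all genes. Anxa2, which encodes the partner of S100a10, read 576 and 619 CPM in control, against 885 and 913 CPM with overexpression, without overlap. Its log2 fold change was 0.59 ± 0.04 (SE; limma adjusted p = 2.7e-12), the same direction as that of S100a10. Anxa1 rose by 0.10 ± 0.03 (limma adjusted p = 0.018), a call lost in 4 of 13 alternative settings. These were no filter on low values (limma adjusted p = 0.107), the threshold of 0.01, and leaving out control 1 or overexpression 2. Ahnak, a giant scaffold bound by the complex of annexin A2 and S100a10, fell by 0.21 ± 0.03, and Anxa6 by 0.48 ± 0.04. Dlc1, a RhoGAP that binds S100a10, rose from 18.0 to 53.8 CPM (1.53 ± 0.07). The plasminogen activator genes rose as well, Plat from 22.5 ± 1.56 to 74.0 ± 2.71 CPM (SD, n = 2; log2 fold change 1.67 ± 0.07) and Plau from 26.0 to 58.0 CPM (1.13 ± 0.07), while the urokinase receptor gene Plaur fell by 0.16 ± 0.05.

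Of the myosin and adhesion targets 1 rose, 3 fell and 1 did not pass, against 66.1% called among all genes. Myh9, the heavy chain bound by S100a4, read 2240 and 2354 CPM in control, against 2055 and 2021 CPM with overexpression. It fell by 0.17 ± 0.03 on the log2 scale (SE; limma adjusted p = 1.6e-04), a much smaller value than the 1.51 of S100a4. Among chaperone and ubiquitin partners, 2 rose, 4 fell and 1 did not pass, against the same 66.1%. Cacybp, the partner of S100a6, rose by 0.19 ± 0.04 (limma adjusted p = 7.7e-04). Of the p53 group, Trp53 read 148 and 157 CPM in control, against 97.4 and 94.3 CPM with overexpression and fell by 0.66 ± 0.04 (limma adjusted p = 9.9e-12). Mdm2, the ubiquitin ligase of p53, fell by 0.50 ± 0.06, and Mdm4 did not pass (-0.05 ± 0.04, limma adjusted p = 0.35). Of the genes tied to S100a13, Syt1, a vesicle calcium sensor, went from 0.851 to 5.66 CPM (1.85 ± 0.17, limma adjusted p = 2.4e-09). Fgf1 rose by 0.70 ± 0.20 (limma adjusted p = 0.0048), and Il1a, at 0.26 ± 0.18, did not pass (limma adjusted p = 0.22). Fitted changes of such low genes move with the pseudocount, for Syt1 to 2.61 with 0.1 and 0.87 with 5.

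Receptors of extracellular S100 proteins split, with 3 of 7 tested higher and 4 lower, against 66.1% called among all genes. Ager, the receptor RAGE, was under the filter at 0.630 to 1.10 CPM in all libraries. Tlr4, a receptor of calprotectin, read 72.1 and 72.2 CPM in control, against 49.2 and 54.2 CPM with overexpression, and fell by 0.47 ± 0.06 (limma adjusted p = 1.6e-07). Bsg, a receptor of S100a9, fell by 0.18 ± 0.03 from 706 to 622 CPM. Mcam, an adhesion receptor that binds S100a8 and S100a9, had the largest fitted rise of the list on the log2(CPM + 1) scale, with 1.03 and 0.414 CPM in control, against 13.9 and 12.9 CPM with overexpression (log2 fold change 3.08 ± 0.17, limma adjusted p = 4.6e-13, or 1.68 with a pseudocount of 5). With a pseudocount of 0.1 Cd36 exceeded it (4.28 and 4.14), and likewise in limma-voom. Cd36, a scavenger receptor, had 2 reads in the control libraries together and 86 with overexpression, a ratio of 55.5 (exact 95% Poisson interval 14.9 to 465, counting error only). Cd33, a sialic-acid-binding receptor, fell by 0.51 ± 0.19 (limma adjusted p = 0.021), and did not pass in 4 of 13 alternative settings. These were no filter on low values (limma adjusted p = 0.12), the threshold of 0.01, and leaving out control 1 or overexpression 1.

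**Figure D4:**
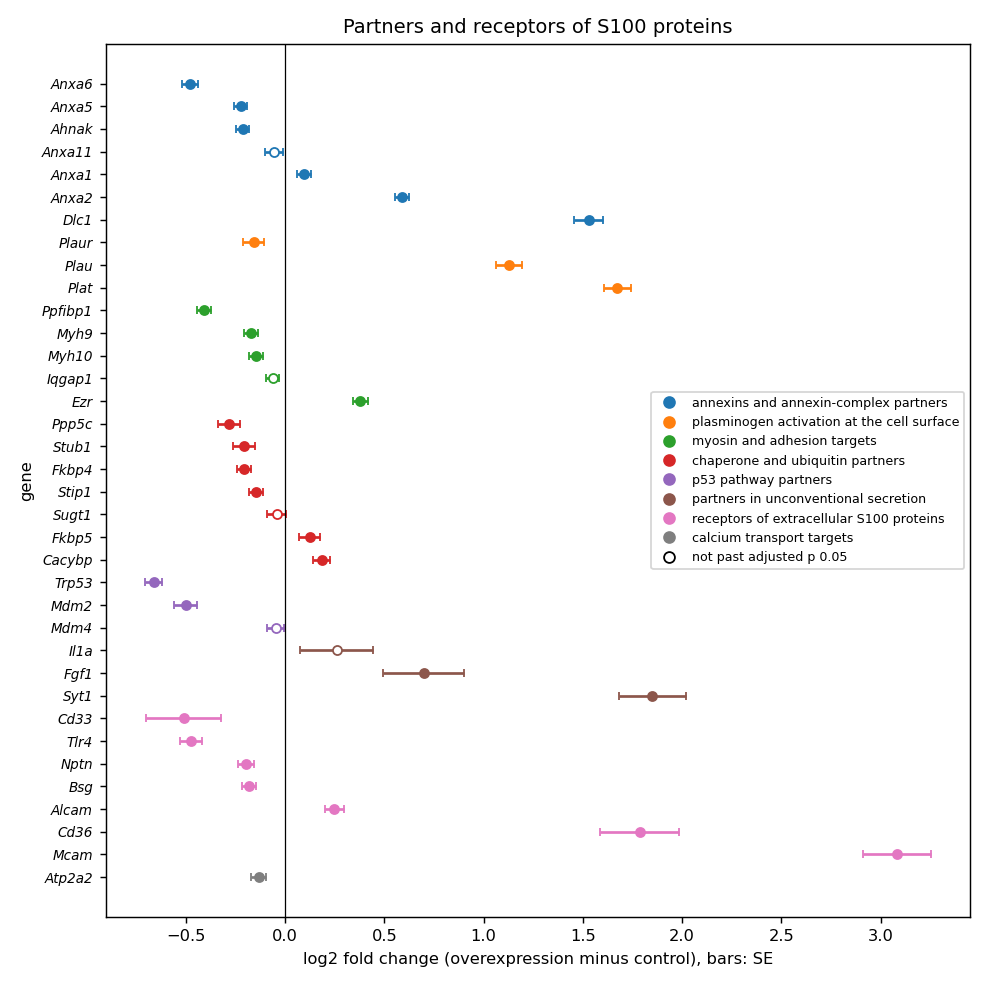
Log2 fold change (overexpression minus control, on log2(CPM + 1)) with SE for the 36 tested genes of S100 partners and receptors, coloured by role; open points did not pass an adjusted p of 0.05. Mcam at 3.08, Syt1 at 1.85 and Cd36 at 1.79 lie farthest to the right, and Trp53 at -0.66 farthest to the left.

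Calcium-binding proteins of other EF-hand families gave a comparison outside the S100 genes. With 16 higher, 8 lower and 8 not past the threshold among the 32 tested, the calls came to 24 of 32 against 66.1%, with a median log2 fold change of 0.08. Sparc, a secreted matrix protein, rose from 573 ± 15.8 to 1301 ± 2.47 CPM (SD, n = 2; log2 fold change 1.18 ± 0.03). Chp1 (0.59 ± 0.04), Pef1 (0.54 ± 0.06), Cib1 (0.37 ± 0.09) and Calu (0.34 ± 0.03), which encode a calcineurin-like regulator, a penta-EF-hand protein, an integrin-binding protein and a chaperone of the secretory pathway, were the next highest. Capn1, the calpain 1 protease gene, fell by 0.58 ± 0.04. Ppp3r1 (-0.24 ± 0.04) and Pdcd6 (-0.19 ± 0.05), which encode a calcineurin subunit and another penta-EF-hand protein, fell less. None of these 3 falls reached that of S100a3 or S100a4 in fitted size.

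The 5 tested genes closest to S100a4 in pattern, by the Euclidean distance of log2(CPM + 1) from the control mean over the 4 libraries, were Gfra2, Dennd2a, B3galt6, Dhrs9 and Cdh19, at distances of 0.0229 to 0.0786. Gfra2, a co-receptor for the growth factor neurturin, read 91.9 and 91.4 CPM in control, against 29.9 and 32.7 CPM with overexpression. With 4 libraries in 2 groups, likeness here means little more than a fall of the same size.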

How the data were processed

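RNA sequencing of 2 control and 2 Mtss1-overexpressing Py8119 libraries was used as deposited. Trizol extraction and paired-end reads are given per the labels' protocols. STAR, RSEM, FastQC 0.11.2 and the build mm10 are named, without roles, in the submitters' processing notes. The authors deposited values that behave as CPM, an assignment made from the values: the 4 columns sum to 982877 to 1016225 and rise in steps worth 1 read. In units of that step, values were whole (within 0.005) for 79.6% to 80.5% of nonzero values and multiples of a hundredth (within 0.001) for 100%, so the recovered values are expected counts, and a count test was not the main test. The scaling of the columns is not stated in the sources.

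The test was limma (version 3.58.1; R 4.3.3), using lmFit and eBayes with trend, on log2(CPM + 1) for genes that reached 1 CPM in 2 or more libraries, adjusted by Benjamini-Hochberg over all 12510 genes. The variance of each gene rested mostly on that of all genes, with median prior degrees of freedom of 19.96 against 2 residual ones. Small p-values therefore do not reflect the gene's own replicates alone. The pseudocount of 1 understates changes of low genes. Coordinates and exon lengths came from GENCODE M21 (mm10), which held 50376 of the 50600 identifiers. In simulated data 12384 genes were tested, with 50 genes changed at each fold and a fixed scatter. The share recovered was 62% for a 1.25-fold change, 86% for a 1.5-fold change, 98% for 2-fold and 100% for 4-fold. In the data 66.1% of genes were called, which makes an adjusted p under 0.05 easier to reach than in the simulation. These shares therefore do not give the power of the test here. The named genes are the members, Mtss1, Anxa1, Anxa2, Ahnak, Myh9, Cacybp, Ager, Tlr4 and Bsg, up to 5 genes per direction of each list with the largest change past the threshold, up to 3 neighbours per direction and the 5 genes nearest to S100a4; others were named after their values were seen, and some genes the rule would name are not reported here. Members and lists were chosen with earlier results of these data known. The markers of endothelial, Schwann and adipose cells were scarce: 0 of 4 and 1 of 7 passed the filter, at no more than 1.19 and 3.13 CPM in sum.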

Additional observations from a re-analysis of the deposited data

How the results depend on the processing

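Alternatives were pseudocounts of 0.1 and 5, no filter, 1 CPM in all libraries, library-size and median-of-ratios scaling, limma-voom on recovered expected counts, the replicate block, a threshold of 0.01 and each library left out in turn. S100a1, S100a3, S100a4, S100a6, S100a10, S100a13 and S100a16 kept their direction and call in all 13; S100a11 passed in 7. The number of S100 genes called was 7 or 8 throughout, while the share of all genes called was 35.4% without the filter (with 7 of 9 S100 genes), 56.3% at the threshold of 0.01, 59.3% to 60.2% with 1 library left out and 65.4% to 67% otherwise. With library-size scaling 4 of 8 tested neighbours were called, against 66% of all genes. The number of neighbours called also moved when 1 library was left out. The log2 ratio of the summed S100 level per kilobase was -0.06, and -0.09 to -0.04 when 1 library was left out. It was -0.024 with library-size scaling and turned to 0.0136 with the longest transcript as the length. The longest transcript is shorter than the exon union for most members. For S100a4 it is 498 against 584 bases, for S100a6 783 against 1367 and for S100a10 685 against 1212. The same-numbered libraries of the groups did not deviate together (correlation across 11703 genes -0.01). This shows no broad shared deviation and cannot tell whether the numbers pair libraries. With the replicate block 8 of 8 S100 genes, 8377 of all genes, 31 partner genes, 24 EF-hand genes and 3 neighbours were called. A group left with 1 library is assumed to vary like the other. Depth limits S100a8, S100a9 and S100a5, each with under 20 reads in any library.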
